A study of Mus musculus with 9 samples.

Results

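Macrophages that lack the transcription factor C/EBPδ were set against macrophages that keep a C/EBPδ without its transactivation domain (ΔTAD). The 3 libraries labelled CEBPD KO and the 3 labelled CEBPD TAD mutant were taken by their genotype, 6 of the 9 libraries of the series, and compared across the genes. All are total RNA of RAW264.7 cells, a mouse macrophage line, grown without stimulation and depleted of ribosomal RNA before single reads were sequenced. Both mutants came from the same CRISPR/Cas9 experiment, with guides placed to either side of the part of Cebpd that encodes the transactivation domain. Knock-out clones carry a homozygous change that abolishes the protein, and ΔTAD clones a homozygous deletion of that domain. The 3 libraries labelled CEBPD wild type are of the unmutated line, and their levels are given beside those of the mutants as a reference only. Mutant cells were expanded from single cells, so that a clone's own differences are part of its genotype's values, and the series' text speaks of 3 independent clones without saying whether each library of a genotype is a clone of its own. The p-values therefore measure the spread between these libraries, which may be technical. Cells were compared in bulk, so that fewer cells expressing a gene and less RNA of it per cell cannot be told apart.

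C/EBPδ belongs to the CCAAT/enhancer binding proteins, which bind DNA as dimers through a basic region and leucine zipper at the carboxyl end. The amino-terminal transactivation domain recruits coactivators, and a protein without it keeps the parts needed to dimerise and to occupy DNA, which a knock-out lacks. In macrophages C/EBPδ is known for amplifying the response to bacterial products, together with C/EBPβ and NF-κB.

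Cebpd (ENSMUSG00000071637) has a protein-coding transcript of a single exon (GRCm38, chromosome 16, plus strand), from 15887286 to 15891031, with a coding sequence from 15887325 to 15888128 for 268 residues. The guides were designed for positions before codon 40 and after codon 108, a stretch of 69 codons. The gene's own level does not tell the mutants apart. Cebpd had 99, 91 and 99 counts with the protein absent and 70, 109 and 130 with the domain absent, which is 5.21, 5.49 and 5.6 CPM (counts relative to library size after TMM scaling) against 4.89, 5.23 and 6.18 CPM. The libraries overlap and the log2 fold change of −0.01 (standard error 0.128) did not pass the test (adjusted p = 0.941). Counts per gene hold reads from the whole exon, most of which lies outside that stretch, so that this value is no check of the labels.

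The 6 libraries hold between 16113791 and 20981829 counts on genes, and a gene with 3 counts, taken as the smallest detectable number, stands at 0.143 to 0.186 CPM. One library stands apart. In ΔTAD replicate 1, 6 annotated features that carry ribosomal RNA reads (CT010467.1, Lars2, mt-Rnr2, mt-Rnr1, Mir6236 and Gm15564) took 12.6% of the counts, against 0.761% to 1.29% in the other 5. The mutants also differ in the share of reads that fell outside annotated exons, 24.22% to 25.8% of all records in the knock-out and 20.58% to 21.48% in the ΔTAD libraries, without overlap, and 22.21% to 24.3% in the wild-type libraries. Markers of the labelled cell type were present in all 9 libraries. Of 10 macrophage markers 9 were tested, and their summed level was 4610 to 4990 CPM in the knock-out, 7120 to 7300 CPM in the ΔTAD and 3490 to 3680 CPM in the wild-type libraries, a sum that Lyz2 leads. Of 12 markers each of lymphocytes, of granulocytes, mast cells and dendritic cells, and of fibroblasts, epithelium and endothelium, 1, 1 and 2 passed the filter on low counts. In the mutant libraries the summed levels of these lists were 4.7 to 6.04, 1.05 to 1.99 and 0.238 to 0.895 CPM, and 7, 4 and 7 of the 12 markers had 0 counts in all 9 libraries.

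Knock-out and ΔTAD macrophages differed in the level of many genes. Of 14312 genes tested, 4730 (33%) differed at an adjusted p under 0.01, 1990 (13.9%) higher in knock-out and 2740 (19.1%) higher in ΔTAD macrophages. Most of these differences were small. The median fold of the called genes was 1.23, 42.2% of them differed less than 1.2-fold, and 76.1% less than 1.5-fold. A difference of 1 or more on the log2 scale was reached by 563 (3.93%), 326 higher in knock-out and 237 higher in ΔTAD macrophages. With protein-coding genes alone, a choice made after seeing the data, the numbers at this size were 169 and 199. With all types of gene the order turned for larger differences. From a difference of 2 on the log2 scale 49 genes were higher in knock-out and 111 higher in ΔTAD macrophages, and from 3 the numbers were 20 and 68. The 3 libraries of one mutant did not overlap those of the other for 4689 of the called genes and for 7555 (52.8%) of all genes tested.

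Which mutant had more genes above the other depended on the scaling and on the libraries and genes fitted. The median log2 fold change of all genes was −0.03 with TMM and 0.04 with library size alone, which counts the ribosomal RNA reads of ΔTAD replicate 1. With library sizes without the 6 ribosomal RNA features, a choice made after seeing the data, the median was −0.02. Then 2187 genes were called higher in knock-out and 2611 higher in ΔTAD macrophages, near the numbers with TMM. With library size alone 2279 genes were called higher in knock-out and 1030 higher in ΔTAD macrophages. With only the 6 mutant libraries the numbers were 2257 and 2213, without ΔTAD replicate 1 they were 2293 and 2274, and with protein-coding genes alone they were 2132 and 1985. For most gene lists with small medians the numbers with library size alone are therefore given as well. Each list count is to be read beside all genes, of which 13.9% were higher in knock-out and 19.1% higher in ΔTAD macrophages. Of protein-coding genes 37.1% were called, 1471 higher in knock-out and 2613 higher in ΔTAD macrophages of 11006.

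**Figure D1:**
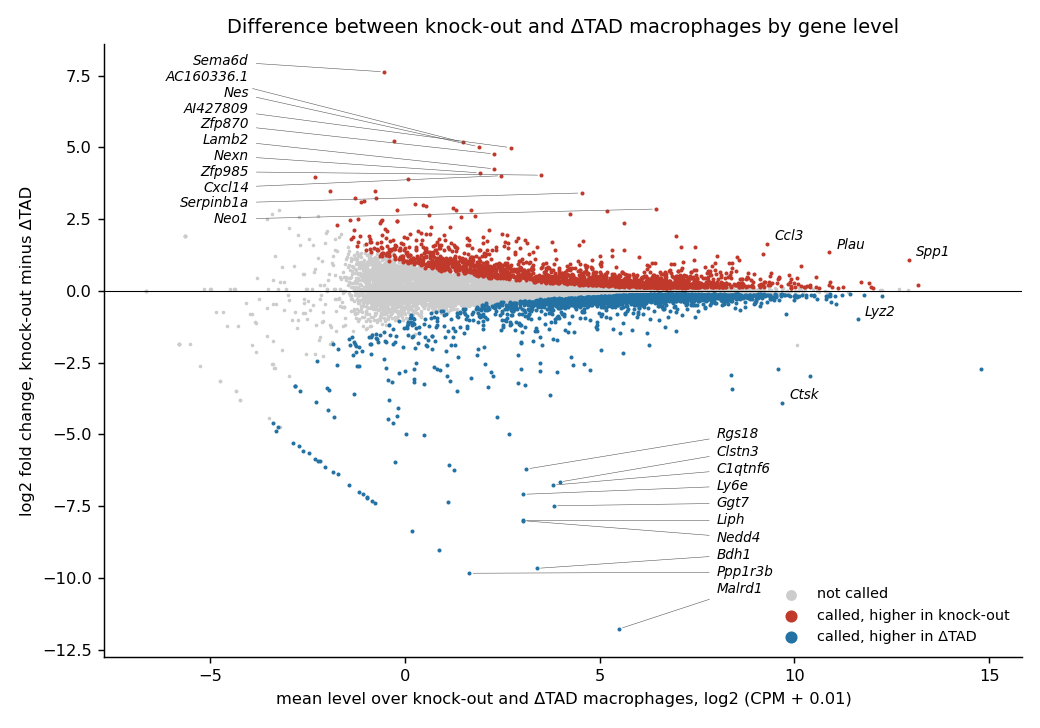
Each point is one of the 14312 genes tested, with its mean level over the 6 mutant libraries on the x axis (log2 of CPM + 0.01) and its log2 fold change, knock-out minus ΔTAD, on the y axis. Called genes are coloured by the mutant in which they were higher, the 10 highest and 10 lowest genes of at least 5 CPM are named, and the points furthest from 0 lie below it, led by Malrd1.

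A small set of genes was close to undetected in one mutant and transcribed in the other. At or under 3 counts in every knock-out library were 18 genes that stood at 1 CPM or more in every ΔTAD library, 16 of them protein-coding. Malrd1, which encodes an intestinal regulator of bile acid feedback, had 0, 1 and 0 counts in knock-out macrophages and 1270, 1900 and 1924 in ΔTAD macrophages, a ratio of 4820 (95% exact interval 865 to 191000). The interval covers counting error only, here and for the other genes with 1 to 6 counts in the lower mutant. In wild-type libraries it had 4, 4 and 8 counts, so that ΔTAD macrophages stood far above both other genotypes. Ppp1r3b, a subunit that brings protein phosphatase 1 to glycogen, was alike, with 0 counts in each knock-out library, 87, 132 and 136 in the ΔTAD libraries, at least 37.1-fold higher against 3 counts in each knock-out library, and 0, 0 and 1 in the wild-type libraries.

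Bdh1, a mitochondrial enzyme of ketone body metabolism, had 1, 0 and 0 counts in knock-out and 298, 432 and 442 counts in ΔTAD libraries, a ratio of 1110 (95% exact interval 199 to 43900), beside 288, 214 and 201 in wild-type libraries. Liph, a lipase that makes lysophosphatidic acid, had 1, 2 and 0 against 247, 320 and 339 counts, a ratio of 286 (95% exact interval 97.5 to 1390), beside 122, 92 and 99 in wild-type libraries. Both genes were near the floor in knock-out macrophages only, among the 3 genotypes. A further pair was low in both mutants but not equally. Nedd4, a ubiquitin ligase, stood at 0.0527, 0.0604 and 0.0566 CPM in knock-out, 17.8, 15.6 and 15.7 CPM in ΔTAD and 417, 416 and 410 CPM in wild-type libraries, with a ratio of 288 (95% exact interval 98.1 to 1400) between the mutants. Ly6e, a lipid-anchored surface protein, stood at 0.0527, 0.181 and 0.113, 16.4, 15.2 and 17.2 and 465, 440 and 456 CPM in the same order, with a ratio of 144 (95% exact interval 65.9 to 394). Nedd4 and Ly6e were thus far below wild-type macrophages in both mutants, and at the floor in the knock-out alone. Of the 18 genes 11 stood at 1 CPM or more in every wild-type library.

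The opposite pattern was rarer and the genes were weakly expressed. At or under 3 counts in every ΔTAD library, and at 1 CPM or more in every knock-out library, were 3 genes. Rbpms, an RNA-binding protein, had 28, 32 and 24 counts in knock-out and 1, 0 and 1 in ΔTAD libraries, a ratio of 44.4 (95% exact interval 11.9 to 372). Sema6d, a transmembrane semaphorin, had 25, 25 and 22 counts against 0 in each ΔTAD library, at least 8.21-fold higher. Foxs1, a forkhead factor, had 19, 18 and 20 against 1, 2 and 2 counts, a ratio of 12 (95% exact interval 4.87 to 38.5). Depth sets these bounds and intervals, which do not rank the genes, and with a limit of 10 counts in place of 3 43 genes were at that floor in the knock-out and 16 in the ΔTAD libraries.

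**Figure D2:**
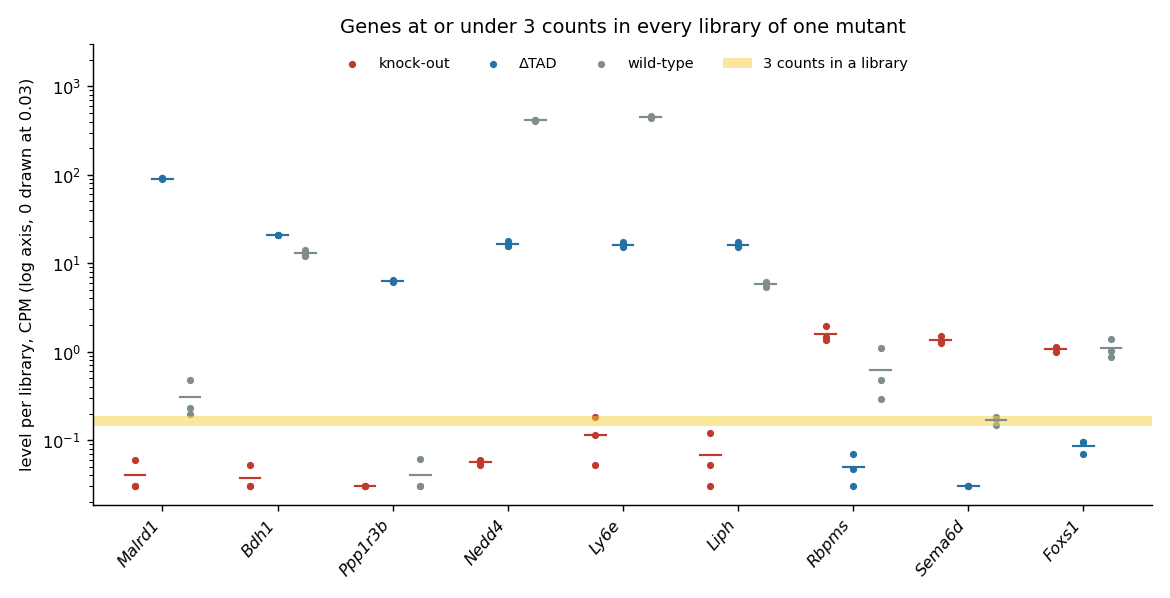
Levels of 9 genes at or under 3 counts in every library of one mutant, in CPM on a log axis, each point a library, each bar a group mean, with a level of 0 drawn at 0.03. The yellow band marks 3 counts in a library (0.143 to 0.186 CPM), and the knock-out libraries lie at or under it for the first 6 genes and the ΔTAD libraries for the last 3.

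Of the 10 genes with at least 5 CPM that were highest in knock-out relative to ΔTAD macrophages, 4 are given with their levels. Nes, an intermediate filament protein, had 6, 8.51 and 7.08 CPM in the knock-out and 0.21, 0.048 and 0.38 CPM in the ΔTAD libraries (log2 fold change 5.02, standard error 0.304, adjusted p = 2.25e-12). Lamb2, a laminin chain of basement membranes, had 8.95, 10.3 and 8.6 CPM in the knock-out and 0.559, 0.24 and 0.666 CPM in the ΔTAD libraries (log2 fold change 4.25, standard error 0.213, adjusted p = 6.08e-14). Neither gene's libraries overlapped, and Lamb2 in wild-type libraries stood at 0.747, 0.578 and 0.544 CPM, near the ΔTAD level. Nexn, an actin-binding protein, had 6.11, 7.24 and 8.21 CPM in the knock-out and 0.21, 0.24 and 0.713 CPM in the ΔTAD libraries (log2 fold change 4.11, standard error 0.263, adjusted p = 6.56e-12), with 14, 18 and 15.1 CPM in wild-type libraries. Neo1, the receptor neogenin, had 160, 148 and 151 CPM in the knock-out and 20.9, 21.7 and 20.8 CPM in the ΔTAD libraries (log2 fold change 2.85, standard error 0.0416, adjusted p = 1.27e-24), with 130, 129 and 126 CPM in wild-type libraries. Here the knock-out libraries lie close to wild-type macrophages and the ΔTAD libraries far below. The others among the 10 were Serpinb1a, an inhibitor of neutrophil proteases, at 3.41 on the log2 scale, the chemokine Cxcl14 at 4.01, the zinc finger genes Zfp870 and Zfp985 at 4.77 and 4.03, and the non-coding AC160336.1 and AI427809 at 5.18 and 4.99.

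Of the 10 genes chosen in the same way for ΔTAD macrophages, 4 were not described above. Ggt7, of the gamma-glutamyltransferase family, had 0.0527, 0.181 and 0.226 CPM in the knock-out and 29.1, 27.5 and 28.1 CPM in the ΔTAD libraries (log2 fold change −7.49, standard error 0.179, adjusted p = 2.11e-20). Clstn3, a calsyntenin, had 0.263, 0.362 and 0.283 CPM in the knock-out and 32.2, 30.3 and 30.9 CPM in the ΔTAD libraries (log2 fold change −6.66, standard error 0.155, adjusted p = 1.37e-20), and in wild-type libraries 2.89, 3.87 and 3.63 CPM. Rgs18, a regulator of G protein signalling in blood cells, had 0.263, 0 and 0.396 CPM in the knock-out and 16.7, 18.2 and 16.4 CPM in the ΔTAD libraries (log2 fold change −6.21, standard error 0.245, adjusted p = 4.99e-16), and in wild-type libraries 0.598, 0.636 and 0.181 CPM. Clstn3 and Rgs18 were therefore higher in ΔTAD libraries than in the libraries of both other genotypes. C1qtnf6, a secreted protein related to complement C1q, stood at 0.369, 0.121 and 0.226 CPM in knock-out and 30.4, 26.3 and 26 CPM in ΔTAD libraries.

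By the number of transcripts involved, the differences of well-expressed genes weigh most. Ctsk, cathepsin K, the collagen-degrading protease of osteoclasts, had 2032, 1623 and 1855 counts in knock-out and 22607, 32135 and 31764 counts in ΔTAD macrophages (log2 fold change −3.90, standard error 0.0403, adjusted p = 7.84e-28), with 1174, 950 and 914 counts in wild-type libraries. Lyz2, the lysozyme of macrophages, had 2050, 2010 and 2280 CPM in the knock-out and 4220, 4240 and 4100 CPM in the ΔTAD libraries (log2 fold change −0.99, standard error 0.0364, adjusted p = 1.20e-16), and 1180, 1220 and 1100 CPM in wild-type libraries. Lyz1, the neighbouring lysozyme gene of near-identical sequence, for which the counting may share reads, followed it (−0.91). Both mutants were above wild-type macrophages for these genes, ΔTAD macrophages more so. Scd2, a desaturase of fatty acid synthesis, had 1830, 1810 and 1770 CPM in the knock-out and 2520, 2550 and 2420 CPM in the ΔTAD libraries (log2 fold change −0.47, standard error 0.0241, adjusted p = 1.02e-13).

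In the other direction, Spp1, which encodes the secreted phosphoprotein osteopontin, had 10400, 10900 and 10600 CPM in the knock-out and 5030, 5020 and 4990 CPM in the ΔTAD libraries (log2 fold change 1.09, standard error 0.0175, adjusted p = 6.35e-24), with 7080, 7390 and 7130 CPM in wild-type libraries. Plau, urokinase, which activates plasminogen at the cell surface, had 2650, 2770 and 2780 CPM in the knock-out and 1020, 1110 and 1100 CPM in the ΔTAD libraries (log2 fold change 1.34, standard error 0.0358, adjusted p = 2.00e-19), with 1950, 1840 and 1740 CPM in wild-type libraries. For both, wild-type macrophages stood between the mutants. Fth1, the ferritin heavy chain, was higher in knock-out macrophages by 0.30 on the log2 scale, mt-Nd1 by 0.28 and Malat1, a nuclear non-coding RNA, by 0.20, the calls of the last pair being lost with DESeq2 and that of Malat1 also without knock-out replicate 2. CT010467.1 and Lars2, at −2.73 and −2.98, were called lower in knock-out macrophages, but these features carry the ribosomal RNA reads of ΔTAD replicate 1, and without that library Lars2 was not called.

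Of the C/EBP family, all 7 genes were tested and 3 were called, 2 of them higher in knock-out macrophages (3 and 1 with library size alone). Cebpe, a factor of late granulocyte and macrophage differentiation, had 8.16, 9.42 and 8.6 CPM in the knock-out and 17.7, 17.7 and 19.9 CPM in the ΔTAD libraries (log2 fold change −1.09, standard error 0.0888, adjusted p = 5.92e-10), with 8.81, 7.63 and 8.71 CPM in wild-type libraries. Expression of this family member was thus higher in ΔTAD macrophages than in both other genotypes. Cebpa, which encodes the factor of early myeloid commitment, had 16.6, 16.9 and 14.1 CPM in the knock-out and 12.2, 12.1 and 13 CPM in the ΔTAD libraries (log2 fold change 0.35, standard error 0.101, adjusted p = 0.0066), and Cebpg, an inhibitory family member, was at 0.16 on the log2 scale. The calls of Cebpa and Cebpg were lost with DESeq2 and without single libraries of either mutant (knock-out replicates 1 and 2 and ΔTAD replicates 2 and 3 for both genes, and knock-out replicate 3 for Cebpg). Cebpb (0.07), Cebpz (−0.12) and Ddit3 (0.31) did not pass the test, nor did the NF-Y genes Nfya (0.07), Nfyb (−0.04) and Nfyc (−0.03), whose protein complex binds CCAAT. Cebpz was called with limma-voom, Ddit3 with library size alone, and both without ΔTAD replicate 3.

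Lineage transcription factors were called in both directions, 14 of 33 tested higher in knock-out and 7 higher in ΔTAD macrophages (median log2 fold change 0.04, and 14 and 5 with library size alone). Spi1, which encodes the myeloid master regulator PU.1, had 141, 146 and 142 CPM in the knock-out and 200, 198 and 210 CPM in the ΔTAD libraries (log2 fold change −0.50, standard error 0.037, adjusted p = 8.69e-11), and 121, 112 and 118 CPM in wild-type libraries. Egr2, an early growth response factor, had 14, 16.9 and 15.7 CPM in the knock-out and 4.68, 4.65 and 6.66 CPM in the ΔTAD libraries (log2 fold change 1.52, standard error 0.123, adjusted p = 4.92e-10). Irf4 (0.95) and Id1 (0.94) were also higher in knock-out macrophages, and Klf4 (−1.08) and Bhlhe41 (−0.69) higher in ΔTAD macrophages. Among 32 bZIP genes, which encode the factors that pair through leucine zippers, 8 were higher in knock-out and 7 higher in ΔTAD macrophages (median −0.01, and 10 and 2 with library size alone). Fos was lower in knock-out macrophages, with 24.5, 22.9 and 22.7 CPM against 56.8, 58.4 and 59.4 CPM (log2 fold change −1.32, standard error 0.0637, adjusted p = 3.12e-14), while Fosb (1.11), Fosl1 (0.60) and Creb5 (1.76) were higher. Creb3l2 (−0.95) and Atf5 (−0.34) were higher in ΔTAD macrophages, Atf5 not with library size alone or without knock-out replicate 2, and without that library 3 bZIP genes in place of 7 were called in this direction.

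Interferon-stimulated genes were higher in knock-out than in ΔTAD macrophages. These genes encode antiviral proteins and are switched on by interferon. Of 38 listed 31 were tested, and 19 were called higher in knock-out and 2 higher in ΔTAD macrophages, against 13.9% and 19.1% of all genes. Their median log2 fold change was 0.66, against −0.03 for all genes, and with library size alone 21 and 1 were called and the median was 0.73. Levels were low in these unstimulated cells. Rsad2, the antiviral protein viperin, had 51, 42 and 39 counts in knock-out and 8, 12 and 15 in ΔTAD libraries, 2.69, 2.54 and 2.21 against 0.559, 0.576 and 0.713 CPM (log2 fold change 1.98, standard error 0.252, adjusted p = 9.33e-07). Oas2, a sensor of double-stranded RNA, had 10.7, 10.0 and 8.43 CPM in the knock-out and 2.73, 2.3 and 2.66 CPM in the ΔTAD libraries (log2 fold change 1.93, standard error 0.148, adjusted p = 1.78e-10). Rtp4, an inhibitor of flavivirus replication, had 1.58, 1.03 and 1.75 CPM in the knock-out and 0.21, 0.192 and 0.38 CPM in the ΔTAD libraries (log2 fold change 2.43, standard error 0.371, adjusted p = 1.12e-05). In none of the 3 genes did the mutants' libraries overlap. Wild-type libraries stood at 2.64, 1.85 and 2.12 CPM for Rsad2, near the knock-out level, and at 3.74, 3.35 and 2.48 CPM for Oas2 and 0.249, 0.231 and 0.423 CPM for Rtp4, near the ΔTAD level. Without single mutant libraries the number higher in knock-out macrophages ran from 17 of 32 then tested without knock-out replicate 1 (median 0.59) to 22 of 34 without ΔTAD replicate 1 (median 0.77).

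Further members, named here after their values were seen, were Isg15 (1.67), Ifit1 (1.39), Ifi44 (1.89), Cmpk2 (1.85), Usp18 (1.78), Oasl2 (1.46) and Irf7 (1.40), all higher in knock-out macrophages. Reads may be shared between near-identical genes of the Oas, Ifit and Ifi20 families, so that single values there are uncertain. Genes that act upstream were also examined. Irf9 was higher in knock-out macrophages (0.66), whereas Stat2 (−0.05) did not pass the test, and Ifnb1, the gene of interferon β, did not pass the filter on low counts. Ifi204, a DNA sensor of a family of near-identical genes, went the other way (log2 fold change −1.55, standard error 0.35, adjusted p = 8.96e-04), a call that was lost without knock-out replicate 1, as did Bst2, tetherin (−0.27), which was not called with library size alone. Not all inducible immune genes moved with them. Of 18 tested genes for the presentation of peptides on MHC class I, 2 were higher in knock-out and 8 higher in ΔTAD macrophages (median −0.09, and 3 and 7 with library size alone). Among the 8 were the immunoproteasome genes Psmb9 (−0.84) and Psmb10 (−0.57) and the transporter Tap2 (−0.46). The 2 higher in knock-out macrophages were Nlrc5 (0.22), whose call was lost without some single libraries, and H2-M3 (1.21). H2-M3 was the only called member that differed by 1 or more on the log2 scale.

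The promoters of these genes are known for the interferon-stimulated response element, whose core reads GAAANNGAAA. RefSeq windows of 300 bases (250 before and 50 after a gene's start, GRCm38.p6) were searched for it on both strands (TTTCNNTTTC where it lies on the other), a motif chosen after the list's values were seen. It was found in 16 of 27 windows (59.3%) of the 24 list members with an entry, in 7 of 16 (43.8%) of the 14 members called higher in knock-out macrophages, and in 351 of 11678 windows (3%) of the 9189 tested genes with an entry. By gene the motif was found in 15 of the 24 (62.5%) and in 7 of the 14 (50%), so that not all called members hold it. The share was thus lower among the members called higher in knock-out macrophages than in the whole list. A link of the motif to the direction was not tested. Isg15, Ifit1, Rsad2 and Oas3 below are members of the list, whereas Cxcl10 is from the chemokine list and its call was lost in some alternatives. Stretches around the match are shown for these 5 genes, all called higher in knock-out macrophages, with the match in capitals and 15 bases to each side.
Isg15, chr4:156200860-156200899, minus strand: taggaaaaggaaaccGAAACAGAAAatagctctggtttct
Ifit1, chr19:34640770-34640809, plus strand: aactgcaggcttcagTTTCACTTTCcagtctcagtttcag
Rsad2, chr12:26456548-26456587, minus strand: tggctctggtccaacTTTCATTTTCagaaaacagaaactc
Oas3, chr5:120777710-120777749, minus strand: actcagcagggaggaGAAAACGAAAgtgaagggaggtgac
Cxcl10, chr5:92349078-92349117, minus strand: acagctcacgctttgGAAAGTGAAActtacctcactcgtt
In Isg15 and Ifit1 further matches lie close to the one shown. Bst2, which was higher in ΔTAD macrophages, also holds the motif.

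Chemokines, the secreted attractants of leukocytes, were also higher in knock-out macrophages. Of 8 tested CC chemokines 5 were called, all higher in knock-out, with a median log2 fold change of 1.06 over the 8 (0.55 without knock-out replicate 2, with the same number called). Ccl3, Ccl5 and Ccl4 had the largest log2 fold changes of the 5, and Ccl3 and Ccl4 are inflammatory chemokines that macrophages release in large amounts. Ccl3 had 913, 1000 and 957 CPM in the knock-out and 302, 316 and 312 CPM in the ΔTAD libraries (log2 fold change 1.63, standard error 0.0392, adjusted p = 2.45e-20). Ccl4 had 246, 280 and 252 CPM in the knock-out and 84.4, 92.9 and 95.5 CPM in the ΔTAD libraries (log2 fold change 1.51, standard error 0.0514, adjusted p = 2.62e-17). In wild-type libraries Ccl3 stood at 1220, 1090 and 1110 and Ccl4 at 288, 260 and 267 CPM, so that the knock-out libraries were near wild-type macrophages and the ΔTAD libraries below both. Ccl9 (0.62), Ccl25 (0.52) and the weakly expressed Ccl5 (1.53) were called as well. Ccl2 and Ccl7 did not pass the test (0.57, standard error 0.377, and 1.90, standard error 1.6). Ccl2 was at 0.421, 0.966 and 0.792 CPM in knock-out, 0.419, 0.576 and 0.428 CPM in ΔTAD and 38, 33.8 and 32.2 CPM in wild-type libraries, low in both mutants.

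All 4 tested CXC chemokines were called. Cxcl2, an attractant of neutrophils, had 8.69, 9.48 and 8.66 CPM in the knock-out and 2.24, 2.11 and 2.38 CPM in the ΔTAD libraries (log2 fold change 1.99, standard error 0.134, adjusted p = 1.77e-11), with 6.62, 7.46 and 6.05 CPM in wild-type libraries. Cxcl14, a homeostatic chemokine, had 9.48, 9.66 and 12.2 CPM in the knock-out and 0.489, 0.576 and 0.808 CPM in the ΔTAD libraries (log2 fold change 4.01, standard error 0.2, adjusted p = 5.24e-14), with 0.697, 0.925 and 0.484 CPM in wild-type libraries, where only the knock-out libraries were high. Cxcl10, an interferon-induced attractant of T cells, was higher in knock-out macrophages (log2 fold change 0.96, standard error 0.267, adjusted p = 0.00529), a call lost with DESeq2 and without any one of knock-out replicates 1 and 3 and ΔTAD replicates 1 and 2. Cxcl16 was higher in ΔTAD macrophages (log2 fold change −0.39, standard error 0.0949, adjusted p = 0.00186), which was not called with DESeq2, with library size alone, or without knock-out replicate 1 or 2 or ΔTAD replicate 1. The calls of Cxcl10 and Cxcl16 are thus the least firm of the 4. Of the receptors, Ccr2 was higher in knock-out (1.52) and Cx3cr1 higher in ΔTAD macrophages, with 67.9, 67.7 and 70.3 against 178, 183 and 178 CPM (log2 fold change −1.39, standard error 0.0343, adjusted p = 3.85e-20).

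Among 17 tested cytokines and growth factors, 6 were higher in knock-out and 2 higher in ΔTAD macrophages (median 0.11, and 6 and 1 with library size alone). Tnf, the inflammatory cytokine, had 328, 324 and 329 CPM in the knock-out and 232, 233 and 231 CPM in the ΔTAD libraries (log2 fold change 0.49, standard error 0.0355, adjusted p = 5.61e-11), and 187, 175 and 175 CPM in wild-type libraries. Tgfb1 (0.45), Pdgfb (0.45), Osm (0.76), Csf1 (1.10) and Tnfsf13 (1.47) were the others, though Csf1, at 0.349 to 1.45 CPM, was not called with DESeq2 or without any one of the knock-out libraries or ΔTAD replicates 1 and 2. Il1rn, the antagonist of the interleukin-1 receptor, was higher in ΔTAD macrophages, with 10.8, 13.8 and 11.8 against 20.6, 23.1 and 19.1 CPM (log2 fold change −0.80, standard error 0.0909, adjusted p = 1.77e-07), as was Igf1 (−0.23), though not with library size alone. Il6, Il1b and Il10 did not pass the filter on low counts in these unstimulated cells.

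**Figure D3:**
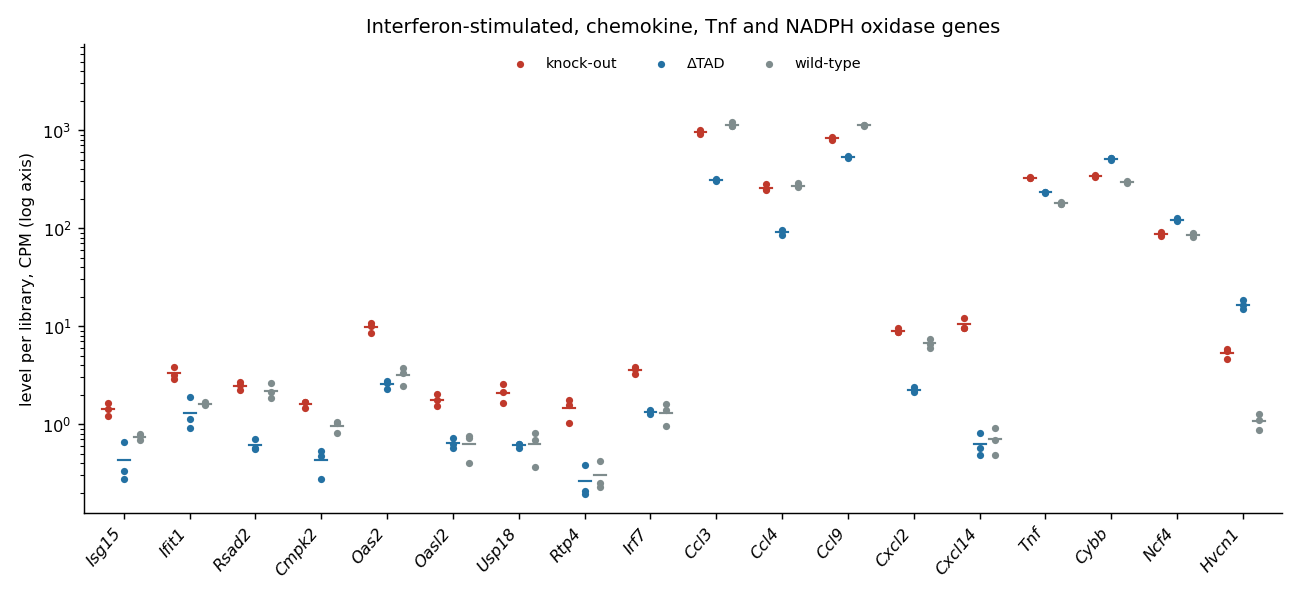
Levels of 18 immune genes in CPM on a log axis, chosen after their values were seen, each point a library, each bar the mean of 3. The knock-out libraries lie above the ΔTAD libraries for the interferon-stimulated genes, the chemokines and Tnf, and below them for Cybb, Ncf4 and Hvcn1 of the oxidative burst.

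Among cytokine receptors, NF-κB pathway genes and Toll-like receptors, more were called higher in ΔTAD than in knock-out macrophages, which was not so in each signalling list. All genes leaned the same way, with 13.9% higher in knock-out and 19.1% higher in ΔTAD macrophages. Of 19 tested JAK-STAT genes 3 were higher in knock-out and 4 higher in ΔTAD macrophages (4 and 0 with library size alone, and 2 higher in ΔTAD macrophages without knock-out replicate 1 or 2 or ΔTAD replicate 1), and of 6 chemokine receptors 1 was higher in each (2 in knock-out without knock-out replicate 1). JAK-STAT genes were called in 36.8% of cases, near the 33% of all genes. Of 24 tested cytokine receptors, 4 were higher in knock-out and 13 higher in ΔTAD macrophages (median −0.19, and 4 and 7 with library size alone). Csf2ra, the ligand-binding chain of the GM-CSF receptor, had 2.9, 3.68 and 3.34 CPM in the knock-out and 17, 19.6 and 19.6 CPM in the ΔTAD libraries (log2 fold change −2.52, standard error 0.124, adjusted p = 4.32e-14), with 0.249, 0.809 and 0.423 CPM in wild-type libraries. Il10ra (−0.54) and Il4ra (−0.76) followed, the latter not called with DESeq2 or without knock-out replicate 2 or ΔTAD replicate 2, and Fas, the death receptor, was the furthest in the other direction (1.06). Of 21 NF-κB pathway genes 5 were higher in knock-out and 10 higher in ΔTAD macrophages (median −0.15, and 5 and 6 with library size alone). Map3k14, the kinase NIK of the non-canonical pathway, had 44.1, 40.7 and 41.8 CPM in the knock-out and 21.8, 20.1 and 24.4 CPM in the ΔTAD libraries (log2 fold change 0.93, standard error 0.0723, adjusted p = 2.28e-10), whereas the inhibitors Nfkbib (−0.46) and Nfkbie (−0.42) were higher in ΔTAD macrophages. Of 28 Toll-like receptors and adaptors 3 were higher in knock-out and 9 higher in ΔTAD macrophages (median −0.08, and 3 and 5 with library size alone), among the latter the RNA sensor Tlr3 (−1.07) and the adaptor Myd88 (−0.48).

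Of 29 tested kinases of the p38, ERK and JNK pathways, their phosphatases and regulators of AU-rich mRNAs, 6 were higher in knock-out and 9 higher in ΔTAD macrophages (median 0.02, and 8 and 4 with library size alone). Mapkapk2, the kinase MK2 downstream of p38, had 289, 276 and 287 CPM in the knock-out and 429, 437 and 429 CPM in the ΔTAD libraries (log2 fold change −0.60, standard error 0.0343, adjusted p = 6.68e-13). Map2k6, an upstream kinase of p38 at low level, was also higher in ΔTAD macrophages (−3.19), and Mapk11, which encodes p38β, higher in knock-out macrophages (0.96). The phosphatases Dusp5 (0.80) and Dusp6 (0.91), which restrain ERK, were higher in knock-out macrophages. Of 27 tested regulators of apoptosis 6 were higher in knock-out and 10 higher in ΔTAD macrophages (8 and 3 with library size alone). Bcl2 (0.70) and Bcl2l1 (0.76), which protect cells, were higher in knock-out macrophages with the death receptor Fas (1.06), and Bad (−0.46) and Pmaip1 (−0.47), which promote apoptosis, were higher in ΔTAD macrophages with the inhibitor of apoptosis Birc3 (−0.41).

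Genes of the oxidative burst were higher in ΔTAD macrophages without exception among those tested. The NADPH oxidase makes superoxide in the phagosome from a membrane core (Cybb, Cyba), cytosolic subunits such as those of Ncf1 and Ncf4, and a Rac GTPase, and the proton channel Hvcn1 balances its charge. All 8 tested genes were called in this direction (19.1% of all genes were), with a median log2 fold change of −0.34, and 5 with library size alone. All 8 were called without knock-out replicate 3, ΔTAD replicate 1 or ΔTAD replicate 3, and 7 without any one of the other mutant libraries or with protein-coding genes alone. Cybb had 332, 337 and 352 CPM in the knock-out and 517, 516 and 491 CPM in the ΔTAD libraries (log2 fold change −0.58, standard error 0.036, adjusted p = 3.81e-12), and 297, 306 and 292 CPM in wild-type libraries. Ncf4 had 86.9, 83.5 and 90.7 CPM in the knock-out and 118, 121 and 128 CPM in the ΔTAD libraries (log2 fold change −0.49, standard error 0.0382, adjusted p = 2.31e-10), and 88.3, 86.8 and 82 CPM in wild-type libraries. Hvcn1 had 5.9, 4.59 and 5.6 CPM in the knock-out and 16.6, 18.3 and 14.9 CPM in the ΔTAD libraries (log2 fold change −1.62, standard error 0.111, adjusted p = 2.15e-11), and 1.1, 0.867 and 1.27 CPM in wild-type libraries. The groups did not overlap for these genes, and for Cybb and Ncf4 the knock-out libraries stood close to the wild-type libraries. The others lay between −0.14 for Rac1 and −0.35 for Ncf1, and Nos2, the inducible nitric oxide synthase, did not pass the filter on low counts.

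Surface receptors of innate immunity were divided. Of 19 tested Fc receptors and paired immunoreceptors 7 were higher in knock-out and 6 higher in ΔTAD macrophages (median 0.04, and 7 and 5 with library size alone). The low-affinity Fcgr3 was higher in knock-out (12.9, 12 and 12.4 against 6.71, 6.28 and 5.61 CPM, log2 fold change 1.01, standard error 0.0975, adjusted p = 1.03e-08), and the high-affinity Fcgr1 higher in ΔTAD macrophages (19.4, 15.6 and 18.4 against 26.1, 29.6 and 30.9 CPM, log2 fold change −0.70, standard error 0.0774, adjusted p = 1.00e-07). The mutants did not overlap for either receptor. The inhibitory Lilrb4a (1.53) and its near-identical neighbour Lilr4b (1.22), between which reads may be shared, were higher in knock-out macrophages. Of 18 lectins and TREM and Siglec receptors, Clec4e, which senses mycobacterial glycolipid, was higher in knock-out (0.85) and Siglece (−1.56) and Clec12a (−0.82), which are inhibitory, higher in ΔTAD macrophages, in a list with 3 and 7 called (3 and 5 with library size alone). Complement genes were called in 6 of 10 cases, 4 of them higher in knock-out macrophages (2 without ΔTAD replicate 3), among them the receptor C5ar1, which was higher in knock-out macrophages, with 9.8, 9.54 and 8.55 against 2.86, 2.88 and 4.09 CPM (log2 fold change 1.48, standard error 0.13, adjusted p = 2.19e-09). Of 11 listed genes of MHC class II presentation 4 were tested, and 3 were higher in ΔTAD macrophages, among them Cd74, the invariant chain (−0.79). The 3 were 2 with DESeq2, with library size alone, and without knock-out replicate 2 or ΔTAD replicate 1 or 3.

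Osteoclast genes, which RAW264.7 cells can induce when they fuse, were called in both directions. Of 15 tested 6 were higher in knock-out and 3 higher in ΔTAD macrophages (median 0.09, and 6 and 1 with library size alone). Dcstamp, the fusion protein, had 69.3, 75.6 and 68.8 CPM in the knock-out and 25.6, 27.4 and 27.3 CPM in the ΔTAD libraries (log2 fold change 1.41, standard error 0.0526, adjusted p = 1.65e-16), with 41.5, 40.9 and 38 CPM in wild-type libraries. Atp6v0d2 (1.05), Src (0.62) and Car2, carbonic anhydrase II (2.11), were higher in knock-out macrophages too, beside Spp1, whereas Ctsk, described above, was higher in ΔTAD macrophages. Ctsk therefore went against the other leading members of its own list. Among 48 tested lysosomal enzymes 6 were higher in knock-out and 20 higher in ΔTAD macrophages (median −0.10, and 7 and 9 with library size alone), with Ctsl (0.63) and Ppt1 (0.45) on the knock-out side and Ctsf (−0.65) and Ctso (−0.56) with Ctsk on the ΔTAD side.

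Metabolic lists leaned to ΔTAD macrophages, mostly by small amounts. All genes leaned the same way (13.9% higher in knock-out and 19.1% higher in ΔTAD macrophages), as did protein-coding genes (1471 and 2613 of 11006). Of 16 tested glycogen genes 9 were higher in ΔTAD and 0 higher in knock-out macrophages (median −0.20, and 7 and 0 with library size alone). Beside Ppp1r3b these were led by the malin gene Nhlrc1, with 0.316, 0.604 and 0.453 against 3.42, 3.12 and 2.61 CPM (log2 fold change −2.72, standard error 0.258, adjusted p = 8.12e-09), and the laforin gene Epm2a, with 6.32, 5.55 and 6.51 against 12.4, 11.6 and 11.2 CPM (log2 fold change −0.93, standard error 0.105, adjusted p = 1.44e-07), whose products together control glycogen quality. In wild-type libraries Nhlrc1 stood at 4.08, 4.16 and 3.87 CPM and Epm2a at 3.34, 2.72 and 2.6 CPM, so that they are not placed alike relative to wild-type macrophages. Of 30 tested genes of glycolysis and the pentose phosphate pathway 1 was higher in knock-out (Hk3, 0.44) and 16 higher in ΔTAD macrophages (median −0.16, and 1 and 10 with library size alone), led by Aldoc (−0.64) and Taldo1 (−0.40). Of 19 hypoxia response genes 2 and 11 were called (median −0.22, and 2 and 7 with library size alone), led by Ankrd37 (−1.06) and Adm (−0.80), and the 11 were 6 without knock-out replicate 1 and 7 without ΔTAD replicate 3.

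Nuclear genes of oxidative phosphorylation were called in 38 of 77 cases, each higher in ΔTAD macrophages, with a median of −0.14. With library size alone 4 were called higher in ΔTAD and 1 higher in knock-out macrophages (median −0.07), so that the count depends on a shift of this size, and without knock-out replicate 2 25 were called higher in ΔTAD macrophages. Examples are Cyc1 (115, 118 and 114 against 140, 142 and 149 CPM, −0.32) and Ndufs7 (−0.34), both subunits of respiratory chain complexes. The 10 tested mitochondrially encoded genes lay on the other side, 4 higher in knock-out macrophages (median 0.14), but when GC content and length of the transcripts were corrected for, an alternative added after the data were seen, 5 were higher in ΔTAD and 0 higher in knock-out macrophages (median −0.14). Cytosolic ribosomal protein genes (2 and 21 of 81, median −0.07) and clustered histone genes (0 and 21 of 60, median −0.14) had 3 and 1, and 1 and 5, called with library size alone. In the main fit 28.4% and 35% of these were called, against 33% of all genes. Without knock-out replicate 1 the 21 ribosomal protein genes were 13 and without knock-out replicate 2 they were 11, and the 4 mitochondrially encoded genes were 2 without knock-out replicate 2 or ΔTAD replicate 2.

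Lipid genes followed the same lean. Of 33 genes of fatty acid and triglyceride metabolism 3 were higher in knock-out and 18 higher in ΔTAD macrophages (median −0.16, and 3 and 6 with library size alone), among them beside Liph and Scd2 the lipase Pnpla2 (−0.56). Of 24 genes of cholesterol synthesis and uptake 0 and 10 were called (median −0.16, and 0 and 4 with library size alone), among them the decarboxylase Mvd (−0.46). Abca1, the cholesterol exporter induced by LXR, had 77.8, 76.1 and 71.4 CPM in the knock-out and 146, 145 and 133 CPM in the ΔTAD libraries (log2 fold change −0.91, standard error 0.0459, adjusted p = 6.46e-14), and 15, 18.4 and 19.1 CPM in wild-type libraries. Of the 10 tested LXR targets and genes of cholesterol efflux 1 was higher in knock-out and 4 higher in ΔTAD macrophages (median −0.04, and 1 and 2 with library size alone).

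Among antioxidant genes, more were called higher in knock-out than in ΔTAD macrophages. NRF2 is the factor that induces glutathione and detoxification genes, and of 22 tested targets and regulators 11 were higher in knock-out and 5 higher in ΔTAD macrophages (median 0.19, and 12 and 3 with library size alone, and 2 or 3 higher in ΔTAD macrophages without any one mutant library other than ΔTAD replicate 2). Slc7a11, which imports cystine for glutathione, had 96.2, 99.7 and 94.5 CPM in the knock-out and 55.1, 51.9 and 49.7 CPM in the ΔTAD libraries (log2 fold change 0.90, standard error 0.042, adjusted p = 1.68e-14), with 80.9, 88.1 and 88.3 CPM in wild-type libraries. Gclm (0.53), the modifier subunit of the first enzyme of glutathione synthesis, and Srxn1 (0.56) went with it, while Gpx1, glutathione peroxidase, was higher in ΔTAD macrophages (−0.46). Of 16 tested iron genes 5 and 3 were called (median −0.04, and 5 and 2 with library size alone). Slc40a1, ferroportin, the only known cellular exporter of iron, had 82.8, 81.2 and 81.3 CPM in the knock-out and 15.5, 16.8 and 15.8 CPM in the ΔTAD libraries (log2 fold change 2.35, standard error 0.05, adjusted p = 2.77e-21), with 40.1, 39.8 and 38.7 CPM in wild-type libraries. Wild-type macrophages again stood between the mutants.

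Genes of coagulation and the plasminogen system were called in both directions, 4 of 11 tested higher in knock-out and 3 higher in ΔTAD macrophages, also with library size alone. Plau, Plaur, the urokinase receptor (0.43), and Procr (0.38) were among those higher in knock-out macrophages, and Pros1 (−1.19), Gas6 (−0.45) and S100a10 (−0.30) were higher in ΔTAD macrophages. The call of Pros1 was lost without knock-out replicate 1 or 2 or ΔTAD replicate 1. Of 11 tested serpins 5 were higher in knock-out and 1, Serpinb8 (−0.59), higher in ΔTAD macrophages (median 0.58). The median was 0.30 without knock-out replicate 3 and 0.34 without ΔTAD replicate 2, 2 were higher in ΔTAD macrophages without either of these, and 3 were without ΔTAD replicate 3. Serpinb1a had 42.5, 40.7 and 44.1 CPM in the knock-out and 3, 4.17 and 4.52 CPM in the ΔTAD libraries (log2 fold change 3.41, standard error 0.0959, adjusted p = 6.03e-19).

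**Figure D4:**
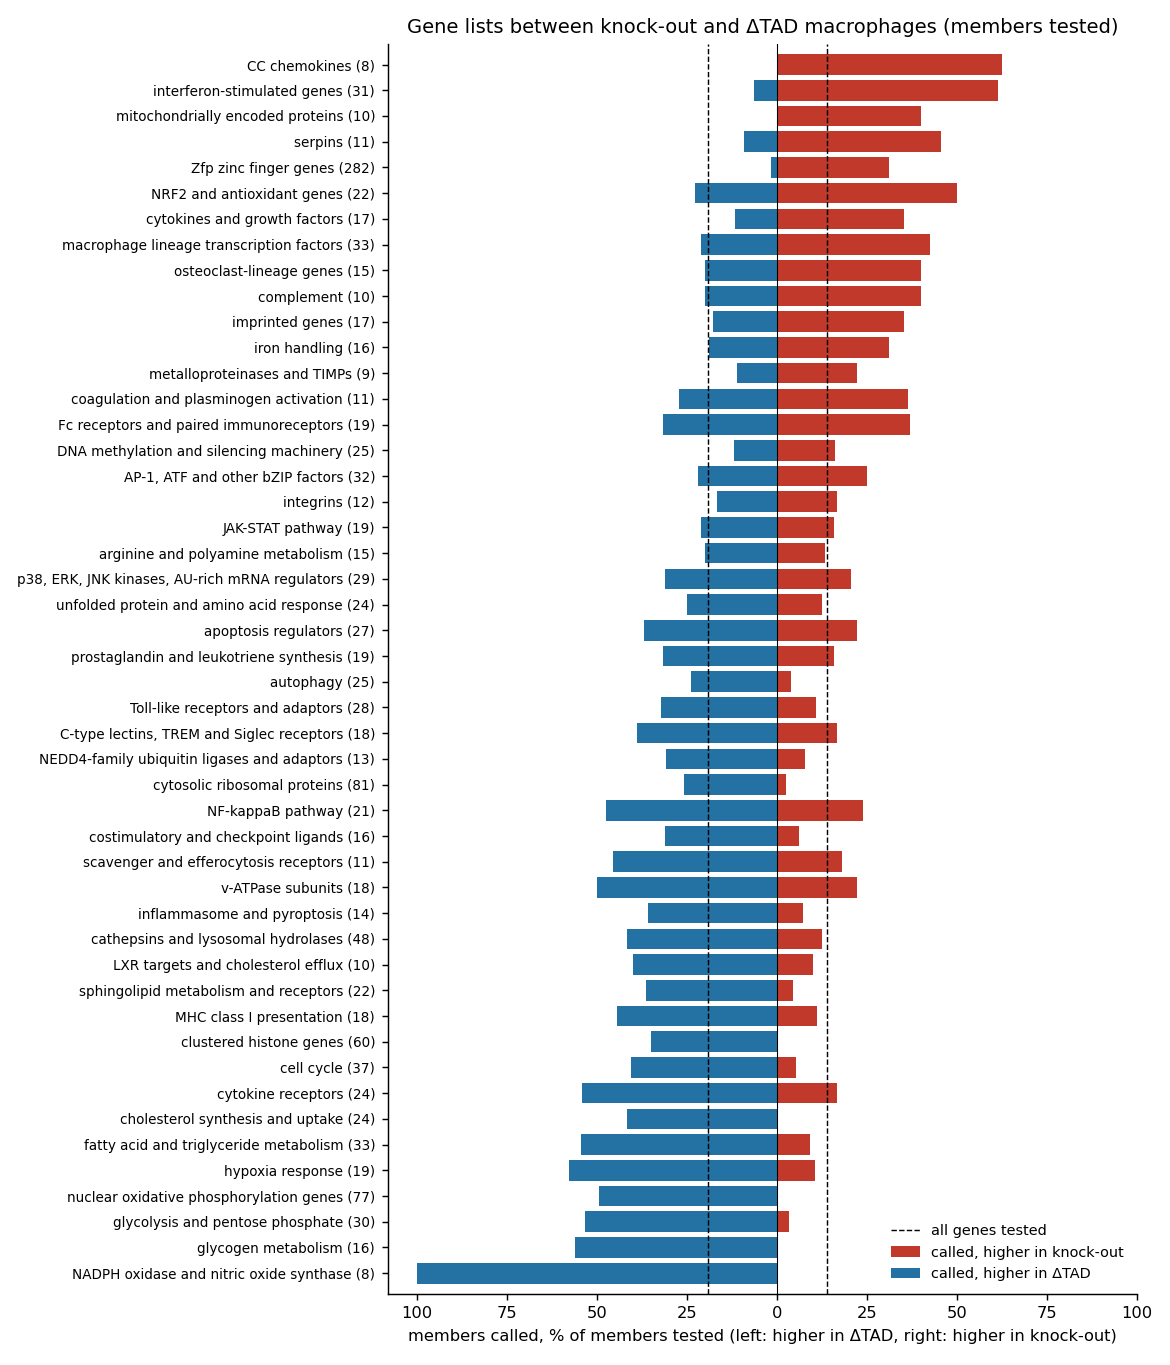
Bars give the members called as a share of the members tested (%) in the gene lists with at least 8 tested members, to the right those higher in knock-out and to the left those higher in ΔTAD macrophages, with the number tested in brackets. The dashed lines mark all genes (13.9% and 19.1%), and the bars of the CC chemokines and interferon-stimulated genes reach furthest to the right and those of the NADPH oxidase furthest to the left.

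Zinc finger genes of the Zfp series, largely repressors of repeated DNA whose members sit in clusters, were called more often in one direction, with 88 of 282 tested higher in knock-out and 5 higher in ΔTAD macrophages (median 0.18). Some stood far lower in ΔTAD than in knock-out macrophages. Zfp870 had 8.64, 9.72 and 9.91 CPM in the knock-out and 0.14, 0.384 and 0.428 CPM in the ΔTAD libraries (log2 fold change 4.77, standard error 0.22, adjusted p = 1.27e-14), and 5.98, 4.97 and 4.6 CPM in wild-type libraries. Zfp985 had 19.4, 22.4 and 22.1 CPM in the knock-out and 1.54, 1.39 and 1.05 CPM in the ΔTAD libraries (log2 fold change 4.03, standard error 0.132, adjusted p = 1.16e-17), and 6.42, 7.46 and 7.14 CPM in wild-type libraries. With GC content and length of the transcripts corrected for, 60 and 18 were called (median 0.11), against 110 and 4 with library size alone, and without ΔTAD replicate 3 8 in place of 5 were higher in ΔTAD macrophages. Zfp genes are paralogs and the assignment of reads between them is uncertain.

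Annotated types of transcript differed between the mutants. TEC genes are unspliced loci still to be experimentally verified, and 306 of 802 tested were higher in knock-out and 4 higher in ΔTAD macrophages, with a median log2 fold change of 0.68. Most of them, 644, lie within a protein-coding gene on the same strand, and of these 270 were higher in knock-out and 1 higher in ΔTAD macrophages. The summed level of the TEC genes was 2229 to 2489 CPM in the knock-out, 1424 to 1598 CPM in the ΔTAD and 1929 to 2344 CPM in the wild-type libraries. Among long non-coding RNAs 163 of 961 were higher in knock-out and 40 higher in ΔTAD macrophages (median 0.24), and within protein-coding genes on the same strand 50 and 1 of 143. Protein-coding genes had 1471 and 2613 of 11006 called and a median of −0.05. These counts moved with the share of reads outside exons given above, and the part of that share in them, and in the lists with small medians, was not tested.

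**Figure D5:**
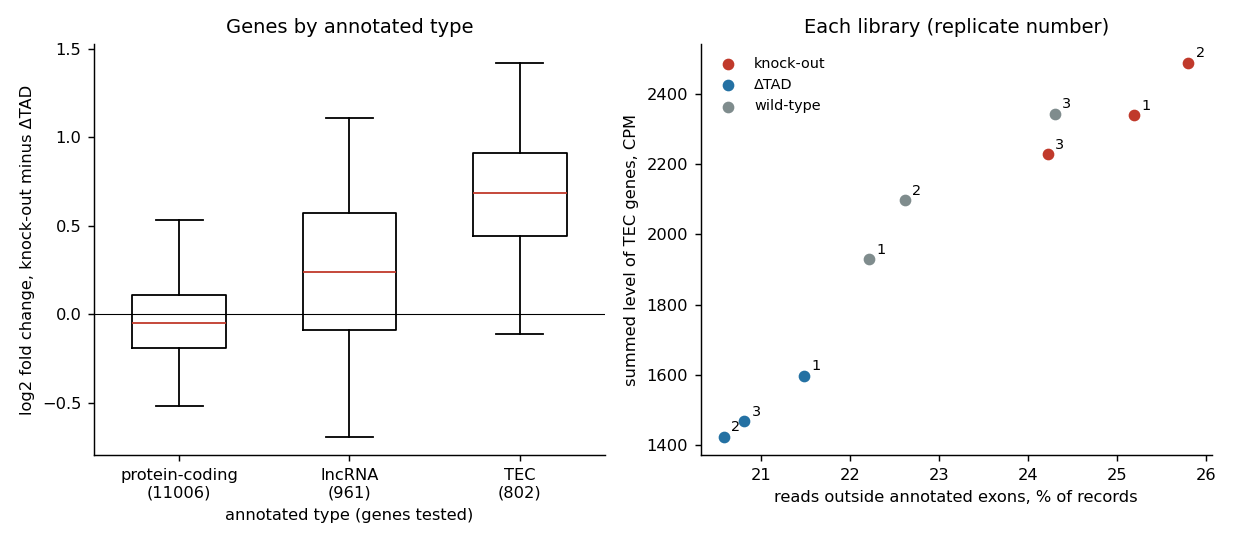
Left, log2 fold change, knock-out minus ΔTAD, of the tested genes by annotated type (line median, box quartiles, whiskers 5th to 95th percentile). Right, each of the 9 libraries by its share of reads outside annotated exons (% of records) and the summed level of TEC genes (CPM), in which the 3 knock-out libraries lie at the upper right and the 3 ΔTAD libraries at the lower left.

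Promoters were searched for the motifs of the factors concerned, the C/EBP sequence TTGCNNAA and the CCAAT box, on both strands of the RefSeq windows, where matches of different motifs may overlap. TTGCNNAA was found in 9 of 122 windows (7.4%) of genes called higher in knock-out by 1 or more on the log2 scale, in 28 of 220 (12.7%) of those higher in ΔTAD macrophages, and in 973 of 11678 (8.3%) of all tested genes with an entry. CCAAT was found in 37.7%, 34.1% and 38.1% of the same windows. Entries existed for 108 of the 326 and 163 of the 237 genes. Genes higher in knock-out macrophages also hold TTGCNNAA, among them Spp1 (1.09), Fcgr3 (1.01) and Slc7a11 (0.9), and a link of the motif to either direction was not tested. The stretches with TTGCNNAA are shown for 3 genes of the largest differences, all higher in ΔTAD macrophages, with the match in capitals (TTNNGCAA where it lies on the other strand).
Ctsk, chr3:95499119-95499156, plus strand: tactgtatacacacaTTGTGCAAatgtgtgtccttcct
Liph, chr16:21995577-21995614, minus strand: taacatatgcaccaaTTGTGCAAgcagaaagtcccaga
Nedd4, chr9:72662146-72662183, plus strand: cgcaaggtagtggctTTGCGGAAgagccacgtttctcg
Whether C/EBPδ, truncated or not, was bound at these places was not measured here.

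No chromosome stood far from the others. Chromosome medians of the log2 fold change lay between −0.07 and 0.11. Stretches where the running median over 51 neighbouring genes passed 0.2 in either direction held 165 genes, 72 of them called. The longest in genes ran on chromosome 3 from 103722222 to 105960099, with 41 genes at a median of 0.39, 15 of them higher in knock-out and 1 higher in ΔTAD macrophages. On chromosome 5 a stretch from 52139585 to 58133230 held 26 genes at a median of 0.33, and one from 66080209 to 72978829 held 31 at 0.26. Of the lists described, only those for Toll-like receptors, glycogen, glycolysis, oxidative phosphorylation, ribosomal proteins and zinc fingers had members there, 1 or 2 each.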

How the data were processed

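Total RNA of 9 RAW264.7 libraries was depleted of ribosomal RNA and sequenced by the authors. They trimmed reads with Trimmomatic (0.36 in the submitters' processing notes), aligned them with HISAT2 (2.3.4.3 in the same notes) and counted them per gene with HTSeq. The paper that reported the data gives other versions of Trimmomatic and HISAT2. The deposited values are raw counts per Ensembl gene, 1 file per library, for 55487 identifiers, of which 55141 had a symbol and a position in GENCODE M21 (GRCm38). Summary lines that name no gene were left out of library sizes and tests, and reads in no annotated feature made up 20.58% to 25.8% of the records in the mutant libraries. Strand and mode of the counting are not given in the sources used here, so that values of overlapping, antisense and near-identical genes are uncertain.

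Groups were taken from the genotype labels. All 9 libraries were fitted with edgeR's quasi-likelihood test (edgeR 4.0.16, R 4.3.3), after filterByExpr with a minimum count of 10 and a minimum total of 15 and TMM scaling, and a gene was called at a Benjamini-Hochberg adjusted p under 0.01 for knock-out minus ΔTAD. Levels are CPM with TMM scaling, and a standard error is the fitted log2 difference over the root of its F statistic. The script was tested on simulated counts. A fold against a group at 0 counts was bounded with 3 counts in each of its libraries, and one against 1 to 6 counts is the ratio of summed, scaled counts with a 95% exact (Clopper-Pearson) interval. The members of the comparison and the 62 gene lists were chosen with earlier results of these data known. Named were the C/EBP and NF-Y genes, the 10 genes with the highest and the 10 with the lowest log2 fold change among called genes of at least 5 CPM in the higher mutant and no overlap, the 5 with the largest CPM difference in each direction, up to 3 called members of each list in each direction with at least 1 CPM, up to 6 genes in each direction among those at the floor, and members not called whose role was discussed. Ccl9, Ccl25, Tnf, Tgfb1, Pdgfb, Procr, Src, Rac1, Ncf1, Irf9, the genes said so in the text and those shown for a promoter match were named after their values were seen. Some items are not reported here. The alternatives tried were DESeq2 (1.42.0), voom weights in limma (3.58.1), glmTreat against a fold of 1.2, other scalings, filters, thresholds and library sets, the replicate block, and, chosen after seeing the data, protein-coding genes only, library sizes without the 6 ribosomal RNA features and a correction for GC content and length of the transcripts. No pair of mutant replicates agreed within counting noise (chi-square per degree of freedom 2.01 to 2.68 for pairs without ΔTAD replicate 1), which does not show that they were independent cultures.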

Additional observations from a re-analysis of the deposited data

How the results depend on the processing

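Across the alternative fits at least 1104 genes were called, and every gene called in both a fit and the one reported had the same direction, except for 17 of 3422 with GC content and length of the transcripts corrected for. Against a fold of 1.2 (glmTreat) 644 genes were higher in knock-out and 460 higher in ΔTAD macrophages. With library size alone 1030 were higher in ΔTAD macrophages, against 2740 with TMM. Requiring a difference of 1 on the log2 scale left 326 and 237, and with protein-coding genes only 169 were higher in knock-out at that size. At 0 counts in every library were 4 genes of the knock-out and 1 of the ΔTAD macrophages, at 10 counts or fewer 43 and 16, and with at least 5 CPM in the other mutant 6 and 0. Without 1 library, 18 to 23 genes were at the floor in knock-out and 3 to 6 in ΔTAD macrophages, the 6 without ΔTAD replicate 3. Leaving out 1 library gave 1539 to 2293 genes higher in knock-out and 2105 to 2761 higher in ΔTAD macrophages. With the replicate block 1871 and 2594 were called. Same-numbered libraries of the mutants did not deviate together (correlations −0.0717, −0.0587 and 0.00451). With 3 libraries a genotype these values cannot settle whether libraries of the mutants were paired. For the 283 named genes, DESeq2, limma-voom, library size alone, the 6 mutant libraries, the replicate block and fits without 1 mutant library were compared. In all of these 207 genes kept their call or its absence. That number does not cover glmTreat or the correction for GC content and length of the transcripts. Of all called genes 23.3% were also called with glmTreat and 72.3% with that correction. The median of metalloproteinase genes turned from 0.06 to −0.07 with every gene of at least 1 count, and that of mitochondrially encoded proteins from 0.14 to −0.14 with that correction. The cause was not tested. The libraries' depth limits low genes, where 3 counts are 0.143 CPM or more, and 3 libraries a genotype limit the estimate of spread.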

Other observations

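Lipid mediator genes were called on both sides, 3 of 19 tested higher in knock-out and 6 higher in ΔTAD macrophages (median log2 fold change 0.04, and 4 and 3 with library size alone). Alox5, the lipoxygenase that starts leukotriene synthesis, had 26, 24.5 and 23.5 CPM in knock-out, 46, 47.5 and 46.3 CPM in ΔTAD and 23.1, 21.9 and 20.4 CPM in wild-type libraries (log2 fold change −0.92, standard error 0.0586, adjusted p = 6.43e-12). Ltc4s, which makes leukotriene C4, was higher in ΔTAD macrophages as well (−0.57), and Ptgr1, which inactivates prostaglandins and leukotriene B4, higher in knock-out macrophages (0.66). Ptgs1, cyclooxygenase 1, was low in both mutants, with 0.527, 0.241 and 0.623 CPM in knock-out, 0.629, 1.39 and 1.38 CPM in ΔTAD and 7.32, 8.56 and 7.86 CPM in wild-type libraries, and its call (−1.33) was lost without knock-out replicate 2 or ΔTAD replicate 2 or 3.

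Inflammasome genes were called in 6 of 14 cases, 5 of them higher in ΔTAD macrophages (median −0.15, and 1 and 4 with library size alone). Casp4, the caspase that senses bacterial lipopolysaccharide in the cytosol, had 8.11, 7.42 and 8.09 CPM in knock-out and 13, 12.3 and 12.7 CPM in ΔTAD libraries (log2 fold change −0.68, standard error 0.094, adjusted p = 2.92e-06), and Nlrc4, a receptor platform for bacterial flagellin, was at −0.57 on the log2 scale. Of 7 purinergic genes 1 was higher in knock-out (P2ry2, 0.37) and 4 higher in ΔTAD macrophages, among them the receptor P2ry6 (−0.58) and P2rx7, the ATP-gated channel upstream of the inflammasome (−0.32), and the 4 were 2 without knock-out replicate 2, ΔTAD replicate 1 or ΔTAD replicate 3. Among 37 cell cycle genes 2 were higher in knock-out and 15 higher in ΔTAD macrophages (median −0.11, and 2 and 6 with library size alone), with the cyclin Ccnd1 (0.50) on the first side and the inhibitor Cdkn1a (−0.53) and the cyclins Ccnd3 (−0.40) and Ccne1 (−0.38) on the second. Odc1, the first enzyme of polyamine synthesis, had 199, 198 and 206 CPM in knock-out and 124, 127 and 128 CPM in ΔTAD libraries (log2 fold change 0.67, standard error 0.0357, adjusted p = 2.02e-13).

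Of 17 tested imprinted genes 6 were higher in knock-out and 3 higher in ΔTAD macrophages (median 0.10, and 7 and 3 with library size alone). Igf2r, the receptor that clears IGF2 and sorts lysosomal enzymes, had 1510, 1450 and 1470 CPM in knock-out, 806, 824 and 828 CPM in ΔTAD and 814, 781 and 758 CPM in wild-type libraries (log2 fold change 0.85, standard error 0.0295, adjusted p = 3.50e-17). Airn, the non-coding RNA that overlaps Igf2r in antisense, was higher in ΔTAD macrophages (−0.42), though not called without ΔTAD replicate 1, and because the strand of the counting is not given the reads of these genes cannot be told apart where they overlap. Of 25 genes for DNA methylation and silencing 4 and 3 were called (4 and 0 with library size alone, and 2 and 2 without ΔTAD replicate 2), led by Dnmt3l, a cofactor of the DNA methyltransferases, with 0.79, 1.15 and 1.25 CPM in knock-out, 0.489, 0.336 and 0.428 CPM in ΔTAD and 2.89, 3.82 and 3.21 CPM in wild-type libraries, a call lost without knock-out replicate 3 or ΔTAD replicate 2.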
